A study of Mus musculus with 42 samples.

Results

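The newly made RNA of NIH3T3 cells during arsenite stress was described from 3 of the 42 libraries of the series: 1 library of cells treated with arsenite and 2 libraries of untreated cells, all from the RNA fraction labelled with 4-thiouridine (4sU). The members were chosen by their labels alone, as the 4sU fractions collected without recovery after arsenite (AS) and without treatment (NT). NIH3T3 is an established mouse fibroblast line, and the labels give C57BL/6 as the strain of every library. AS cells had received 250 µM sodium arsenite for 1 h, NT cells were kept in normal medium, and all 3 cultures had taken up 50 µM 4sU during the last 1 h before harvest, so that the labelling hour of the AS cells was the arsenite hour. The NT libraries are labelled 0 h and 4 h, which is the recovery time they served as controls for, and they are called NT 0 h and NT 4 h here. All libraries were made by 3′READS, which sequences the ends of polyadenylated RNA next to the poly(A) tail and so counts RNA by its polyadenylation site (PAS). The 2 NT libraries supply the only estimate of spread, and the single AS library was assumed to vary like them. No source says that the libraries of a group came from separate experiments, so p-values measure only the spread between these samples, which may be technical.

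Arsenite binds thiol groups, misfolds proteins and raises reactive oxygen species. Cells answer by inducing chaperones through the heat shock factor, antioxidant enzymes through NRF2, metallothioneins through the metal factor MTF1, and immediate early transcription factors through kinase cascades, while translation is lowered through phosphorylation of eIF2α. A 3′ end is made when the cleavage and polyadenylation machinery reads a signal, most often AATAAA or ATTAAA, shortly upstream of the cut. Many genes hold a proximal site (pPAS) and a distal site (dPAS) in the 3′UTR, and the stretch between them, the aUTR, is found in the long isoform alone. 4sU marks RNA transcribed in the labelling window, so the labelled fraction is closer to synthesis than total RNA is, although RNA that is unstable within the window is lost from it.

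Sites of 8 genes are shown first, picked from the 12 genes of lowest and highest RED among called genes with at least 50 reads of each isoform, because the comparison of isoforms rests on reads that end at them. Each line gives the last 30 bases of the RNA up to the PAS, on the strand of the transcript (mm9), with AATAAA or ATTAAA in capitals. Rsbn1l, Arid5b, Trip11 and Hells are genes whose new RNA ended more often at the pPAS in the AS library, and Smarcc1, Cd164, Twsg1 and Crebzf are genes whose new RNA ended more often at the dPAS.
Rsbn1l pPAS (chr5:20401245-20401274, minus strand): aattctgttATTAAAacatatacatatgga
Rsbn1l dPAS (chr5:20398842-20398871, minus strand): ttcAATAAAtactaagattgataaccacaa
Arid5b pPAS (chr10:67558542-67558571, minus strand): tttaATTAAAcagcatcccttctgtttgta
Arid5b dPAS (chr10:67555273-67555302, minus strand): aatatttAATAAAaaatgttactatctgtt
Trip11 pPAS (chr12:103075006-103075035, minus strand): gctgtttaaatgaaatcatacgttatgtaa
Trip11 dPAS (chr12:103072217-103072246, minus strand): ttcgtccacAATAAAaacacttgggaaaca
Hells pPAS (chr19:39042738-39042767, plus strand): tgacttaccaAATAAAtgtttattataata
Hells dPAS (chr19:39045927-39045956, plus strand): aggatacAATAAAaaatgcttataaatcaa
Smarcc1 pPAS (chr9:110142648-110142677, plus strand): gcattgAATAAAtgaaataccatttatgaa
Smarcc1 dPAS (chr9:110144339-110144368, plus strand): aggccagcctgggctacacATTAAAagaaa
Cd164 pPAS (chr10:41250819-41250848, plus strand): atttaaAATAAAtgtttattagtctcttga
Cd164 dPAS (chr10:41251698-41251727, plus strand): ttggtagtaaatcacttttttttaaaagaa
Twsg1 pPAS (chr17:66272411-66272440, minus strand): agaaggtattttAATAAAaaatagaaatga
Twsg1 dPAS (chr17:66271307-66271336, minus strand): atgtAATAAAatatatgccacgtcagagaa
Crebzf pPAS (chr7:97595229-97595258, plus strand): ttaATTAAAaaagttatgattaatataaaa
Crebzf dPAS (chr7:97596202-97596231, plus strand): tgctgagtagAATAAAgtccttaactaaaa
AATAAA or ATTAAA stood in both windows of a gene in Rsbn1l, Arid5b, Hells, Smarcc1, Twsg1 and Crebzf. Neither stood in the pPAS window of Trip11 or in the dPAS window of Cd164.

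The AS library held 2170692 PAS reads, fewer than the NT 0 h library with 2513834 and the NT 4 h library with 3960472. Each file lists a PAS from 5 reads on, so a gene listed at 0 may have had a few reads. Gene levels are given in RPM, the usual scaling of PAS reads to a common library total, summed over the PASs of a gene, and are shares of a library, so they say nothing of the amount of new RNA per cell. In such bulk samples fewer cells making an RNA and less RNA per cell cannot be told apart. Markers of fibroblasts were found for 9 of 9 genes, with a summed level of 8953 to 10156 RPM in the 3 libraries. Those of epithelial and endothelial cells and of neurons were listed at 0 throughout, and the immune and skeletal muscle markers had 1 gene with reads each, at 10.1 RPM or less in every library. Across 9881 genes the log2 RPM values of the 2 NT libraries had a Pearson correlation of 0.960, against 0.906 and 0.908 for the AS library with each of them, as a description over genes that share each library's depth.

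In the AS library 265 of 9881 genes with at least 30 reads were higher than in NT (2.68%) and 819 were lower (8.29%), by edgeR's quasi-likelihood test with a Benjamini-Hochberg adjusted p under 0.05. The AS value lay above both NT values in all 265, and below both in 817 of the 819. The change was over 2-fold in 178 of the higher and 685 of the lower genes, and the median gene fell by 0.21 on the log2 scale. With TMM factors in place of library totals, which raise the median log2 change by 0.20, the counts were 430 higher and 539 lower, and the share of higher genes among the calls went from 24.4% to 44.4%. All 265 higher genes and 539 of the 819 lower genes were called in the same direction under both scalings. DESeq2 called 154 of the 265 higher genes and 127 of the 819 lower genes. Lists are therefore read below against the median of all tested genes, and a log2 change always means AS against NT on library totals unless TMM is named.

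Chaperone genes were among those that rose. Hspa1b, which encodes the inducible HSP70, had 48.1 and 53.8 RPM in the NT libraries and 3257 RPM in the AS library. This is a 63.9-fold difference (log2 change 5.99, SE 0.29, edgeR adjusted p = 2.66e-87). Its near-identical neighbour Hspa1a did not reach the read minimum, and reads of these copies cannot be told apart with certainty. Dnajb1, an HSP40 cochaperone that hands substrates to HSP70, stood at 175 and 99.99 RPM in NT and at 2754 RPM in AS, a 20.0-fold difference. Hsph1, a nucleotide exchange factor of HSP70, went from 1092 and 731 RPM to 3187 RPM, and Hspe1, the mitochondrial HSP10, from 1131 and 924 RPM to 2023 RPM. In each of these genes AS lay above both NT libraries. Hspa8, the constitutive HSP70, rose from 6.76 and 6.56 RPM to 162 RPM, but its reads come from PASs inside exons, since none of the clusters used lies at its annotated 3′ end, and its level is therefore not that of the whole mRNA.

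Of 22 tested genes of the 26 chaperones listed, 12 rose and none fell, beside 2.68% and 8.29% of all tested genes, with a median log2 change of 1.02 against -0.21 for all tested genes. The list included both steep and flat members. The cochaperone Bag3 rose 2.92-fold and the small chaperone Cryab 2.53-fold. Stip1, Fkbp4, Chordc1 and Cacybp, cochaperones of HSP90, did not pass the test, with fold values of 1.46, 1.23, 1.18 and 1.02. Hspa4 and Hspa4l, of the HSP110 family like Hsph1, had 1.34 and 1.25.

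Metal and oxidant genes moved less evenly. Hmox1, heme oxygenase, had 52.5 and 50.2 RPM in NT and 830 RPM in AS, 16.2-fold higher (edgeR adjusted p = 4.67e-47). The metallothioneins Mt1 and Mt2, which bind heavy metals, started at 1052 and 912 RPM and at 1375 and 899 RPM and reached 2216 and 2561 RPM, a 2.26-fold and a 2.25-fold rise. Slc30a1, the zinc exporter of the plasma membrane, rose 3.73-fold from 259 and 164 RPM to 790 RPM. Thus 3 of 3 genes of the metallothionein list rose, although DESeq2 did not call Mt2 (adjusted p = 0.23). Of the 21 NRF2 targets, 4 rose (19.05%, beside 2.68% of all tested genes) and 2 fell (9.52%, beside 8.29%), with a median of 0.33, and under TMM 7 rose and 1 fell, with Gclm, Srxn1 and Ftl1 among the risers. Besides Hmox1, the rising genes were Sqstm1, a selective autophagy receptor (2.99-fold), Txnrd1, thioredoxin reductase (1.79-fold, not called by DESeq2 or on PASs listed in all 3 libraries, with adjusted p of 0.057 and 0.25), and Osgin1 (4.68-fold, from 4.77 and 6.06 RPM). Mafg, a small MAF partner of NRF2, fell 2.70-fold, from 180 and 270 RPM to 83.4 RPM, and the cystine transporter gene Slc7a11 fell from 17.9 and 10.9 RPM to 3.69 RPM, a call that TMM factors did not give (adjusted p = 0.070). Nqo1 and Gclc, classical NRF2 targets, had fold values of 0.993 and 0.940 and did not pass the test.

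Immediate early genes formed the list with the highest median, 1.70 over 30 tested genes. Of these 23 rose (76.7%, beside 2.68% of all tested genes) and none fell (beside 8.29%). Egr1, a zinc finger transcription factor, had 5.17 and 2.78 RPM in NT and 322 RPM in AS, the highest fold of any gene named, 81.1. Fos, the partner of JUN in AP-1, went from 63.3 and 68.7 RPM to 2321 RPM (35.2-fold), and Jun from 366 and 310 RPM to 2202 RPM (6.51-fold). Atf3 rose from 19.9 and 16.4 RPM to 404 RPM, Egr2 from 139 and 123 RPM to 2027 RPM, and Ier2 from 307 and 250 RPM to 3079 RPM. AS stood above both NT libraries in each of them. Dusp1, a phosphatase that switches off MAP kinases, rose 12.7-fold, and Zfp36, which recruits deadenylases to AU-rich mRNAs, rose 8.19-fold. The list was not uniform: Myc (1.04-fold), Klf4 (1.07-fold) and the MAP kinase phosphatase genes Dusp4, Dusp5 and Dusp6 (1.23-fold to 1.56-fold) did not pass the test on library totals, although Dusp6 did with TMM (adjusted p = 0.035). Fosl2 did not pass either, at 1010 and 820 RPM in NT and 566 RPM in AS.

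**Figure D1:**
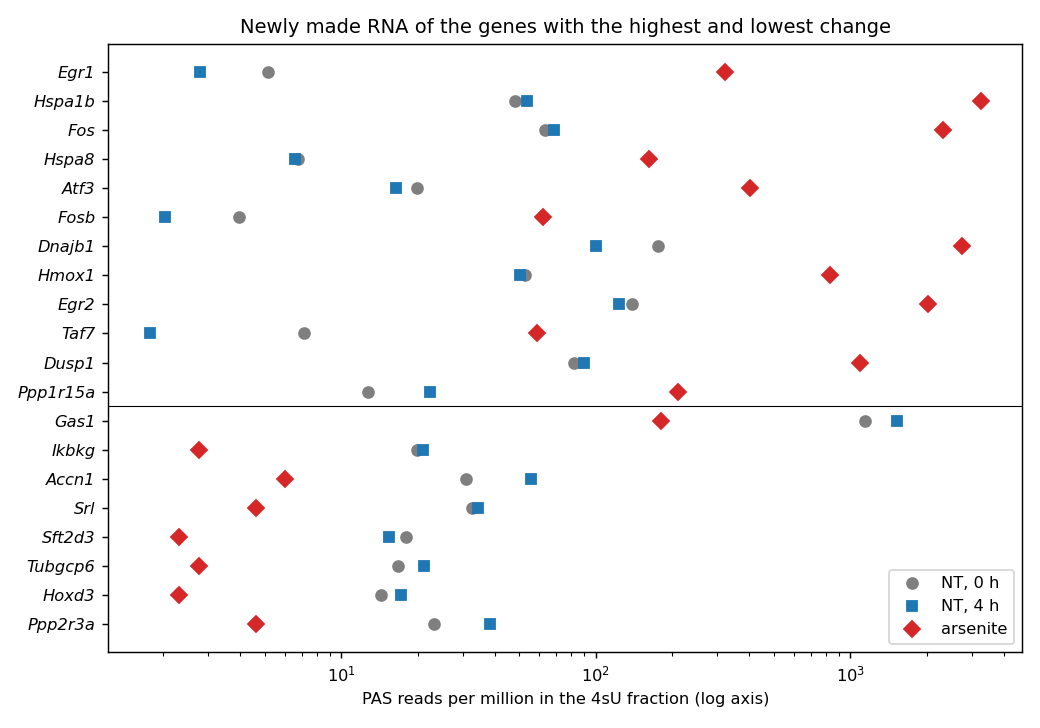
Level in the 4sU fraction in RPM (log axis) of the 12 genes with the highest log2 change and of those among the 12 lowest that had reads in the AS library. Each point is 1 library: NT 0 h (grey circles), NT 4 h (blue squares) and arsenite (red diamonds). Arsenite values lie to the right of both NT values for the upper 12 genes, with 3257 RPM for Hspa1b, and to the left for the lower 8, of which Gas1 alone exceeds 100 RPM.

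The genes of the translation arm of the stress response, ATF4 and its targets, were divided between genes that rose and genes that did not pass the test. Of 19 tested, 7 rose (36.8%, beside 2.68% of all tested genes) and none fell (beside 8.29%), with a median of 0.15. Ppp1r15a, which directs a phosphatase to eIF2α, rose 12.0-fold from 12.7 and 22.2 RPM to 211 RPM. Ddit3, which encodes CHOP, rose from 290 and 251 RPM to 985 RPM (3.64-fold), and Chac1, a glutathione-degrading enzyme, from 71.6 and 61.9 RPM to 276 RPM (4.14-fold). Atf4 itself rose 2.18-fold. The amino acid genes Asns, Psat1, Shmt2 and Slc7a5 did not pass the test, with fold values of 1.24, 1.11, 0.794 and 0.837. Of 17 genes of the ER unfolded protein response 2 rose (11.8%), Hspa5 (1.87-fold, not called by DESeq2, adjusted p = 0.49) and Dnajb9 (3.32-fold). Of 13 p53 targets 2 rose (15.4%), Plk3 and Bbc3, the latter not called by DESeq2. Zmat3 was the 1 that fell (7.69%, near the 8.29% of all tested genes). Zfand2a, whose product binds the proteasome under arsenite, went from 29.8 and 31.1 RPM to 227 RPM. In the list of ubiquitin and AN1 zinc finger genes 4 of 6 rose (66.7%, median 1.15). Of 29 proteasome subunits none passed the test (median 0.20), and 2 rose under TMM.

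Among genes of cleavage and polyadenylation, 2 of 19 rose (10.5%, beside 2.68% of all tested genes) and 1 fell (5.26%, beside 8.29%). Their median was -0.18, close to the -0.21 of all tested genes. Cstf3, which encodes the CstF-77 subunit that bridges the cleavage complex, rose from 288 and 332 RPM to 660 RPM (2.13-fold), and Pcf11, a termination factor, from 247 and 227 RPM to 442 RPM (1.87-fold). Cstf2t, a paralog of the RNA-binding subunit CstF-64, fell 3.43-fold from 95.1 and 148 RPM to 35.5 RPM. Of 24 SR protein and hnRNP genes, 3 rose (12.5%), Tra2b, Srsf3 and Hnrnpc, at 1.71-fold to 2.18-fold, and 1 fell (4.17%), Srsf10. DESeq2 did not call Hnrnpc and Srsf10 (adjusted p = 0.11 and 0.33). Of 14 elongation genes 1 rose (7.14%), the bromodomain gene Brd2 at 1.94-fold, and 2 fell (14.3%, beside 8.29% of all tested genes). The latter were Aff4 and Ell, subunits of the super elongation complex, which fell 2.30-fold and 2.09-fold. Ell was called neither under TMM nor by DESeq2 (adjusted p = 0.096 and 0.50).

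Lists for general cell functions are given beside the 2.68% of all tested genes that rose and the 8.29% that fell. Of 56 cytosolic ribosomal protein genes 1 rose and 1 fell (1.79% each), with a median of 0.13. Of 55 nuclear genes of the respiratory chain none passed the test (median 0.06, from -0.42 to 0.49). Of 26 cell cycle genes 1 fell (3.85%), Aurkb, with 11 AS reads, a call lost when only PASs listed in all 3 libraries were summed (adjusted p = 0.12). Of 19 extracellular matrix genes 1 fell (5.26%), Col1a1, from 919 and 1359 RPM to 565 RPM, a call that neither TMM factors nor DESeq2 gave (adjusted p = 0.096 and 0.093). Of 11 actin and SRF target genes 2 rose (18.2%), Acta2, smooth muscle actin, at 1.99-fold, and Actg1. Actg1 had only 5 and 8 reads in the NT libraries and 23 in AS, and its call held in 4 of 7 other settings. The medians of these 5 lists lay between -0.10 and 0.13, against -0.21 for all tested genes.

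**Figure D2:**
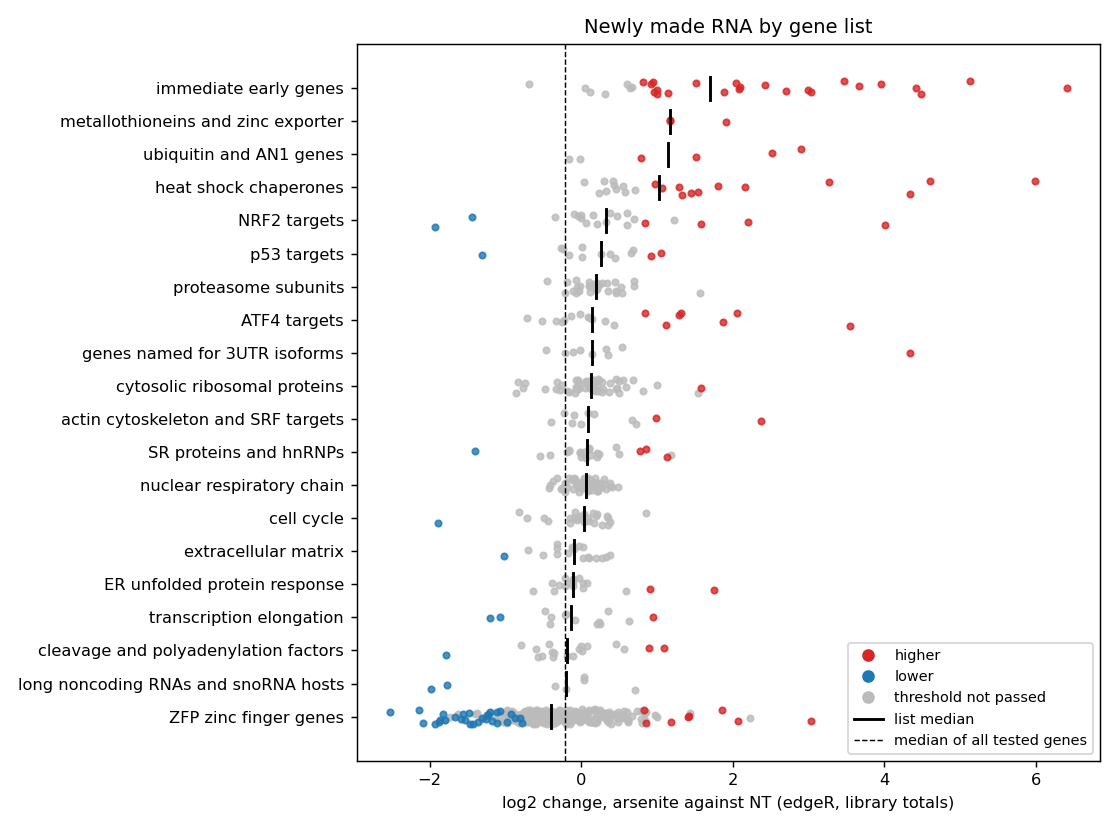
Log2 change in newly made RNA (arsenite against NT, library totals) of each tested gene, by list, in order of the list median (black bars). Red and blue points passed edgeR's threshold as higher or lower, grey points did not, the dashed line is the median of all tested genes at -0.21, and genes listed at 0 in the AS library are left out. The 4 lists at the top have medians between 1.02 and 1.70.

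Genes that fell included some of the most abundant new RNAs. Gas1, a growth arrest protein of the cell surface, had 1139 and 1531 RPM in NT and 181 RPM in AS, 7.39-fold lower (log2 change -2.89, SE 0.32, edgeR adjusted p = 6.29e-17). Neat1, a nuclear noncoding RNA, had 1670 and 1718 RPM in NT and 430 RPM in AS, 3.94-fold lower, with 933 AS reads. These reads count its polyadenylated ends alone, so any Neat1 RNA without a poly(A) tail was not measured. Meg3, another nuclear noncoding RNA, fell 3.42-fold. In all of these AS lay below both NT libraries. Neat1 and Meg3 were the genes that fell among 7 tested noncoding RNAs and snoRNA hosts (28.6%, beside 8.29% of all tested genes), and none of the 7 rose. The other genes among the 12 lowest were thinly read. Ikbkg, Accn1, Srl, Sft2d3, Tubgcp6, Hoxd3 and Ppp2r3a had 5 to 13 AS reads, at 2.30 to 5.99 RPM, against 14.3 to 55.8 RPM in the NT libraries, and Sft2d3 and Hoxd3 were not called on PASs listed in all 3 libraries (adjusted p = 0.52 and 0.18). 4933439C10Rik, Elac1, Kdm4b and Trub1 were listed at 0 in AS, with 11.9 to 23.2 RPM in NT, and no fold is given for them. Of the 819 lower genes 133 were listed at 0 in AS, the shallowest library. When each gene was summed over the PASs listed in all 3 libraries, a choice made after the values were seen, 597 of 9538 genes were lower and 237 higher.

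Zinc finger genes with a Zfp symbol, most of which encode transcriptional repressors, fell in 33 of 268 tested cases (12.3%, beside 8.29% of all tested genes) and rose in 8 (2.99%, beside 2.68%), and with TMM factors 25 fell and 12 rose. Their median was -0.40, below that of all tested genes, and with TMM factors it was -0.20 beside -0.01 for all genes. Outside the labelled fraction their values lay the other way. In total RNA, compared in 3 numbered pairs described further on, 57 of 247 were higher in all 3 pairs (23.1%, beside 13.1% of all tested genes) and 18 lower (7.29%, beside 15.6%), and in the unlabelled RNA their median log2 change was 0.31, beside -0.03 for all. Zfp828 fell from 269 and 211 RPM to 79.7 RPM. Zfp451 and Zfp507 had fold values of 0.582 and 0.544 and were called on library totals alone, with adjusted p of 0.21 and 0.12 under TMM. The highest of the risers was Zfp36, which is no repressor of this kind.

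Higher genes were shorter than lower ones. The median genomic span was 13.0 kb in the 265 higher genes, 25.7 kb in the lower genes and 24.0 kb in all tested genes, and the median number of exons was 6, 9 and 9. In 5 equal bins of genes by span, the share called higher went from 5.16% in the shortest to 1.11% in the longest, and with TMM from 6.73% to 2.53%. The share called lower ranged from 7.44% to 9.06% without such an order. The median log2 change differed by -0.06 between the longest and the shortest genes, by 0.11 against NT 0 h alone and by -0.20 against NT 4 h alone, which are smaller in size than the 0.30 by which NT 4 h differed from NT 0 h between the same bins. The order by span was thus seen in the share of genes that rose.

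The change also varied with how a gene's level in the labelled fraction compared with that in the unlabelled one. Genes were ranked by the ratio of the 4sU fraction to the unlabelled flow-through fraction (Ft, RNA made earlier) in the NT 4 h cells, and AS was compared with NT 0 h, which shares no library with that ranking. The median log2 ratio of AS to NT 0 h was -0.02, -0.11, -0.17, -0.25 and -0.32 in the 5 bins from the lowest to the highest ratio of 4sU to Ft. The ratio of NT 4 h to NT 0 h ran the other way, from -0.13 to 0.21, and shares a library with the ranking.

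Total RNA of NIH3T3 cells given the same arsenite treatment but, per the labels, no 4sU, with 3 AS and 3 NT libraries, was used to see which changes reached the whole pool. Numbered libraries varied together, so each AS library was set against the NT library of its number (1, 2 and 4). Among the 257 higher genes with enough reads there, 131 (51.0%) were higher in all 3 pairs, against 1241 of 9498 tested genes (13.1%), and 3 were lower in all 3. Among 774 lower genes, 232 (30.0%) were lower in all 3 pairs, against 1486 of 9498 (15.6%), and 41 were higher in all. Hspa1b differed by 2.03, 6.90 and 2.28 in the 3 pairs (log2 of RPM with 0.5 added), Atf3 by 1.69, 4.86 and 3.55, Dnajb1 by 1.94, 4.19 and 1.57 and Hmox1 by 2.09, 3.57 and 1.77. All 4 were higher in every pair, with sizes that varied widely between pairs. Egr1 had no such agreement, at -0.17 in pair 1 and 1.24 in pair 2. Its value of 0.00 in pair 4 means that neither library listed reads, not a measured lack of change. Gas1 fell in each pair, by 0.58, 0.21 and 0.93, less than in newly made RNA, and Neat1 had 0.59, -0.45 and -2.12.

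By edgeR's quasi-likelihood test no gene of 10418 passed an adjusted p of 0.05 in total RNA without the pairing, with 18 genes higher and none lower at an unadjusted p under 0.05, and DESeq2 gave none either, with 29 higher and 1 lower at an unadjusted p under 0.05. With the replicate number as a block 10 genes were higher (0.0960%) and none lower. They included Chac1, Ddit3, Csrnp1, Mt2, Gadd45g, Mt1, Hmox1, Zfp36 and Gadd45b. Csrnp1 and Gadd45g were named after their values were seen. All 10 were also higher in newly made RNA. For Mt1 and Mt2 the paired fit gave 1.58 and 1.63 in total RNA beside 1.17 and 1.17 in newly made RNA.

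**Figure D3:**
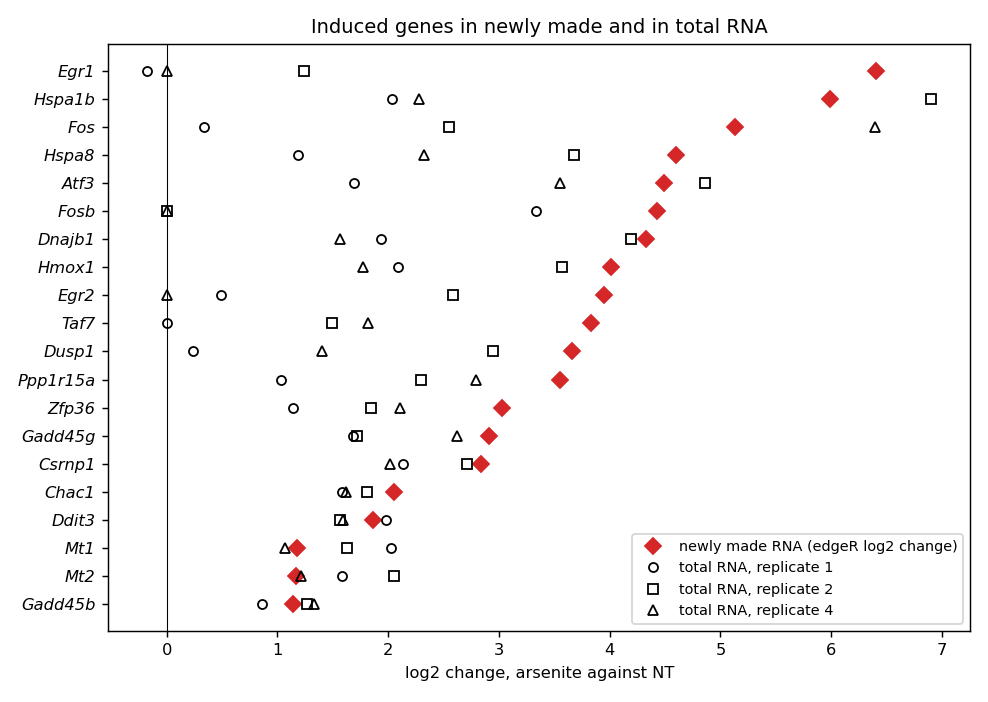
Log2 change with arsenite of the 12 genes with the highest change in newly made RNA and of 9 genes called in total RNA with the replicate block. Red diamonds are newly made RNA, and open symbols are the 3 numbered pairs of total RNA, where a point at 0 can mean that both libraries of the pair list no reads. Hspa1b lies at 5.99 in newly made RNA and between 2.03 and 6.90 in total RNA.

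The unlabelled RNA of the same cells and the 4sU fraction after 4 h of recovery can be set beside these values. In Ft, Fos had 17.0 and 17.5 RPM in NT and 438 RPM in AS, Hspa1b 27.3 and 36.8 RPM and 827 RPM, and Neat1 498 and 472 RPM and 199 RPM. Induced RNA was thus also found in Ft, and how much labelled RNA it held was not tested. In the recovery library, which shares its NT controls with the AS comparison, the 4sU level of Hspa1b was 6255 RPM and that of Hmox1 2888 RPM, while Fos had 166 RPM and Egr2 87.3 RPM. Neat1 had 8024 RPM there, above both its NT and its AS level.

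PAS choice was compared in 3266 genes with more than 5 reads of both isoforms in each library. The measure RED is the log2 ratio of dPAS to pPAS reads in AS minus that in NT, so that negative values mean relatively more of the short isoform. In the AS library 520 of the 3266 genes were shortened (15.9%) and 35 lengthened (1.07%), by Fisher's exact test requiring against each NT library a p under 0.05 and the same direction of a shift exceeding 5 percentage points. The same test between the 2 NT libraries called 176 genes shortened (5.39%) and 323 lengthened (9.89%) in NT 4 h, the opposite lean. Against single NT libraries the counts were 714 shortened and 111 lengthened (NT 0 h, 3321 genes) and 885 and 94 (NT 4 h, 3565 genes). Fisher's test knows only the counting of reads. With a test that used the spread between the NT libraries, edgeR on isoform and treatment with library as a term, 165 genes were shortened and 7 lengthened at an adjusted p under 0.05, and 153 of the 165 were among the 520.

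The median RED was -0.38 over all 3266 genes, and it was below 0 in 2331 of them (71.4%), while NT 4 h against NT 0 h gave 0.08. Shortening grew with the size of the aUTR. In 5 equal bins with median aUTRs of 69, 239, 611, 1251 and 2637 nt, the median RED was -0.17, -0.22, -0.28, -0.56 and -0.91. The share of genes called shortened went from 4.74% in the first bin to 35.5% in the last, while the share called lengthened stayed between 0.766% and 1.38%. Between the NT libraries the medians were 0.04 to 0.14 in the 5 bins, and the percent shortened 3.82% to 6.28%. The order over bins was the same against each NT library, from -0.08 to -0.83 against NT 0 h and from -0.20 to -0.98 against NT 4 h.

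**Figure D4:**
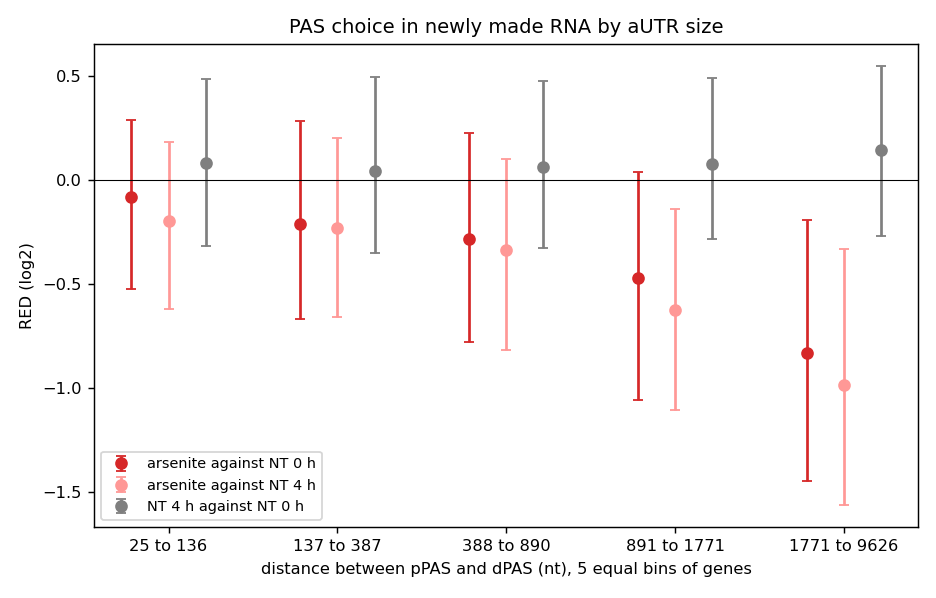
RED in newly made RNA by the distance between pPAS and dPAS, in 5 bins of 653 or 654 genes. Points are medians and bars the quartiles over genes, for arsenite against each NT library (red tones) and for the NT libraries against each other (grey). The arsenite medians go down to -0.83 and -0.98 in the bin of the longest aUTRs, while the grey ones stay at or above 0.04.

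The isoforms can also be read separately on library totals, where which of them moved more depends on the scaling, since TMM factors raise the median gene by 0.20, while RED does not. Over all 3266 genes the median log2 change of the pPAS level was 0.05 and that of dPAS reads -0.32 (0.5 RPM added). In the bin with the longest aUTRs these were 0.11 and -0.70, and in the bin with the shortest 0.01 and -0.11. Among the 520 shortened genes, chosen on the ratio of both, the medians were 0.44 and -0.86, the dPAS was below both NT values in 473, the pPAS above both in 370, and both held in 323. The shortened genes had a median gene-level log2 change of -0.32, against -0.18 for genes called neither way. The gene level includes the reads of both isoforms.

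Some properties of these genes were not used to call them. The median aUTR was 1566 nt in the shortened genes, 764 nt in the lengthened and 611 nt in all tested. AATAAA or ATTAAA lay within the 45 nt before the dPAS in 92.3% of shortened genes, against 80.6% of all tested genes, and before the pPAS in 75.6% against 70.0%. The dPAS share with a signal also differed by aUTR size, from 66.2% in the shortest bin to 88.4% and 87.1% in the 2 longest. Whether aUTR size accounts for the excess in shortened genes was not tested. The thymine content of the aUTR was 32.2% at the median in both shortened and all tested genes. The gene-level calls, in contrast, rest partly on the same pPAS and dPAS reads, so they are not independent of the PAS calls. Of the genes lower in newly made RNA 74 of 291 were shortened (25.4%), and of the higher genes 18 of 109 (16.5%), beside 15.9% of all tested genes. The median aUTRs of these lower and higher genes were 973 and 492 nt.

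Among the 6 genes of lowest RED, Rsbn1l, Hells and A430033K04Rik ended mostly at the dPAS in NT and mostly at the pPAS in AS, while Arid5b, Trip11 and Dcp2 still ended mostly at the dPAS. Rsbn1l ended at its dPAS in 91.7% and 93.6% of reads in NT, and in 45.2% in AS (Wilson 95% interval 36.7 to 53.9%, counting error only), a RED of -3.98. Arid5b, which encodes a DNA-binding protein, went from 95.8% and 96.1% to 72.2%, with 859 and 1413 dPAS reads in NT and 618 in AS, and 38 and 57 pPAS reads in NT and 238 in AS. Hells, a chromatin remodeler, went from 61.1% and 54.5% to 15.2%. In Hells the pPAS level hardly moved (0.04 on the log2 scale) and the dPAS fell by 2.83, whereas in Rsbn1l the pPAS rose by 2.99 and the dPAS fell by 0.76. Trip11, a Golgi tether, went from 89.5% and 93.0% to 59.3%, A430033K04Rik from 78.4% and 61.8% to 21.2% with 26 pPAS and 7 dPAS reads in AS, and Dcp2, the decapping enzyme, from 95.3% and 94.4% to 71.1%. All 6 intervals of the AS library lay below those of both NT libraries.

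Lengthening was called in few genes. Smarcc1, a subunit of the BAF complex, ended at its dPAS in 6.25% and 5.13% of NT reads and in 43.9% of AS reads, with 7, 10 and 47 dPAS reads. Cd164 went from 2.14% and 2.73% to 20.4%, and Twsg1, a BMP modulator, from 16.3% and 12.8% to 50.6%. In these the dPAS reads rose, by 2.81, 3.48 and 2.28 on the log2 scale. In Crebzf the share went from 55.5% and 53.4% to 86.8%, but there the pPAS fell by 3.29 and the dPAS fell by 0.90. Tox4 and Zfp513 completed the 6, at 32.5% and 14.6% in AS.

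**Figure D5:**
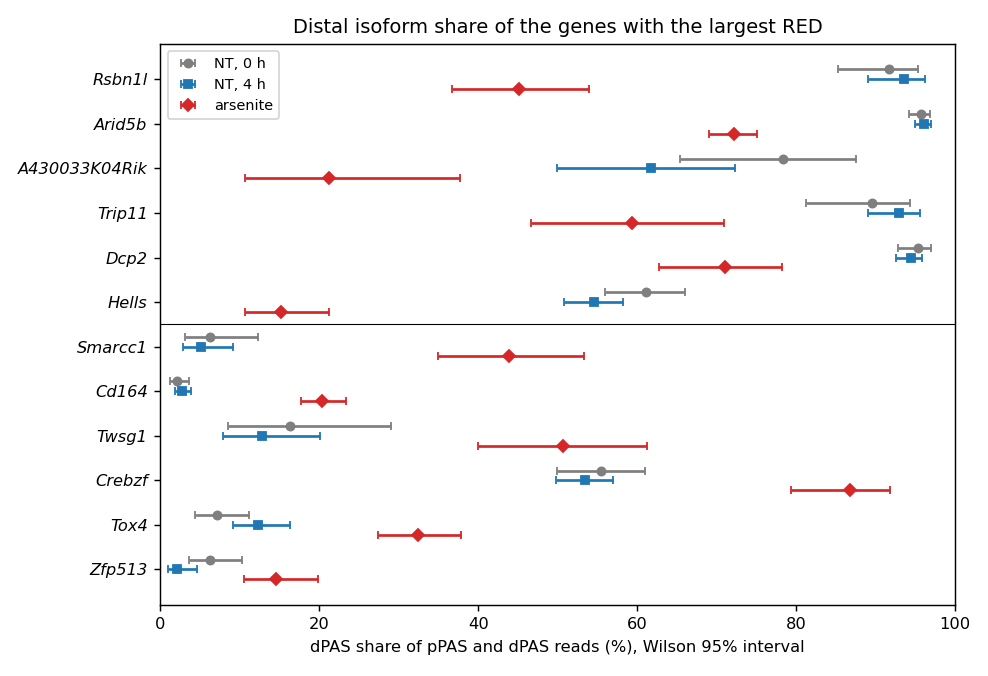
Share of dPAS reads among pPAS and dPAS reads in newly made RNA for 12 called genes, the 6 of lowest RED above and the 6 of highest RED below. Points are single libraries and bars are Wilson 95% intervals of the reads, which cover counting error only. In the upper 6 genes the arsenite share lies below both NT shares, as for Hells at 15.2%, and in the lower 6 above them, as for Crebzf at 86.8%.

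Of the genes named for their 3′UTR isoforms, 7 of 9 could be tested and none was called against both NT libraries. Timp2, an inhibitor of metalloproteinases, had a dPAS share of 88.6% and 91.3% in NT and 85.0% in AS, and Nmt1, an N-myristoyltransferase, 79.8%, 81.1% and 76.4%. Their changes stayed under 5 percentage points against at least 1 NT library or did not pass Fisher's exact test there. Dnajb1 kept its long isoform while its level rose 20.0-fold: the dPAS share was 95.4% and 91.6% in NT and 89.3% in AS. Hspa4l had 46.0% and 66.9% in NT and 71.2% in AS, so the NT libraries differed by more than AS did from the nearer one. Rpl22 and 0610007L01Rik had a RED of -0.26 and -0.89. Fam49b had 5 dPAS reads in AS, and Purb, for which 2 gene identifiers exist, had none in NT 0 h, so both stayed below the read minimum.

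In total RNA the shift was present and weaker. Of 1433 genes that could be measured in all 3 pairs, 282 (19.7%) had a negative RED in all 3, and 148 a positive one. Among the 257 shortened genes in that set, 70 (27.2%) were negative in all 3 and 8 positive. The median RED of the shortened genes was -0.08, -0.18 and -0.30 in the 3 pairs, beside -0.08, -0.06 and -0.10 for all 1433 genes. In the bin of the longest aUTRs the medians were -0.15, -0.16 and -0.34, beside -0.05, -0.04 and 0.04 in the bin of the shortest. The Ft fraction gave a median of -0.46 for 430 of the shortened genes and -0.21 for 2589 tested genes, in single AS and summed NT libraries.

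Reads within genes ended in introns in 2.63% and 2.77% of cases in NT and in 2.32% in AS. Ends in exons but outside the last-exon 3′UTR took 5.38% and 5.46% in NT and 5.02% in AS. This class includes coding parts of last exons and all exons of noncoding genes. The Wilson 95% intervals of the intron shares, from 2.30% to 2.35% in AS and from 2.61% upward in NT, did not overlap, but cover counting error only. AS differed from the NT mean by -0.38 percentage points. Ends downstream of the annotated gene end, up to 4000 nt, took 18.5% of gene reads in NT 0 h, 18.7% in NT 4 h and 18.5% in AS. With a window of 1000 nt the AS share was above the NT mean by 0.29 percentage points and with 10000 nt it was below by 0.28, so no direction is given. Mitochondrial RNA took 7.15% and 4.77% of reads in NT and 7.58% in AS.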

How the data were processed

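Per the labels and the study's methods, the authors trimmed 3′READS reads with cutadapt, aligned them to mm9 with Bowtie2, dropped alignments of mapping quality under 10 or with fewer than 2 nongenomic T at the poly(A) end, and joined cleavage positions within 24 nt. The submitters' notes also name STAR. The authors deposited raw counts of PAS reads per cluster for each library, and the files list clusters from 5 reads on.

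From these counts, PASs of 14 libraries were joined within 24 nt and assigned to GENCODE vM1 genes on the mm9 assembly, with up to 4000 nt downstream of a gene end. Of the reads, 5.58% to 6.21% lay outside genes and 0.327% to 0.470% in clusters of more than 1 gene, and both stayed out of the tests. Library totals were 2170692 to 3960472 reads in the 4sU libraries. The study's methods describe random bases in the adapters but no removal of duplicate reads with them, so intervals cover counting error only. Genes with at least 30 reads over the compared libraries were tested with edgeR 4.0.16 in R 4.3.3 (quasi-likelihood test, Benjamini-Hochberg adjusted p under 0.05) on library totals, with DESeq2 1.42.0 as an alternative. PAS pairs lay at most 10000 nt apart. The scripts were tested on simulated data. Other steps used Python 3.11.15.

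Named genes were the 12 highest and 12 lowest called genes with at least 100 reads and AS outside both NT libraries, 2 to 4 of the most read members of each list, the genes named for 3′UTR isoforms, and the 6 most negative and 6 most positive RED values among called genes with at least 50 reads of each isoform. Other list members given with values were chosen after their values were seen. The members and lists were chosen with earlier results of these data known. In total RNA the numbered AS and NT libraries deviated together from their group means, with correlations of 0.893, 0.884 and 0.837 over 8935 genes. The numbers were therefore taken as pairs. All other combinations were negative, which centring on the mean of 3 libraries favours, so those values add little. Some genes of the lists are not reported here.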

Additional observations from a re-analysis of the deposited data

Results flagged for a closer look

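Outside annotated genes, which entered no comparison above, 61 of 1711 PAS clusters with at least 30 reads were over 4-fold higher in the AS library than in both NT libraries, and 117 were over 4-fold lower than both. Between the NT libraries, 46 clusters were over 4-fold higher in NT 4 h and 11 in NT 0 h. The last 60 bases before the site shared a run of 30 bases with a coding transcript in 5 of the 61 (8.20%), against 29.3% of all 1711. The highest of them, at position 102466807 of chromosome 7 on the minus strand (mm9), had 18.3 and 23.2 RPM in NT and 360 RPM in AS, and it shared such a run with the transcript of Hmox1. A cluster at position 102975551 of chromosome 10 was listed at 0 in both NT libraries and had 163 RPM in AS.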

How the results depend on the processing

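The counts of genes in newly made RNA depended on the scaling and the test. TMM factors gave 430 higher and 539 lower genes in place of 265 and 819, DESeq2 gave 160 and 127, and a fit of all 4sU and Ft libraries gave 205 and 510. With 1 NT library left out in that larger fit, 281 to 284 genes were higher and 588 to 900 lower. In total RNA the paired fit with the replicate block gave 10 higher genes, and every other setting gave 0. Shortened genes numbered 520 and lengthened genes 35. They numbered 915 and 107 with the NT reads summed, 714 to 885 and 94 to 111 with 1 NT library left out, 336 and 16 with more than 20 reads of each isoform, 325 and 16 with adjusted Fisher p-values, and 165 and 7 with edgeR. The median RED of -0.38 was -0.45 with the most proximal and most distal PAS. The difference in median RED between the longest and shortest aUTRs, -0.74, was -0.69 with PASs at most 5 kb apart, -0.80 with the outermost PASs, -0.78 with libraries thinned to 2000000 reads, and -0.80 to -0.75 with 1 NT library left out. The share of ends downstream of genes differed by 0.29 percentage points with a window of 1000 nt and by -0.28 with 10000 nt, in place of -0.11. The causes were not tested. With 1 AS library no replicate check of the arsenite values was possible, and lists of PASs from 5 reads on limit the genes read thinly in the AS library.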
